A study of Mus musculus with 25 samples.

Results

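The genes described here are 10 members of the BCL2 family and the inhibitor of apoptosis proteins (IAPs), taken by gene name: Bcl2, Bcl2l1, Mcl1, Bax, Bak1, Bcl2l11, Bbc3, Pmaip1, Xiap and Birc3. They are 10 of the 47729 genes of the bulk count table and 10 of the 31053 features of the single-cell matrices. Each of the 10 passed the filter on low counts that left 15773 bulk genes for testing.

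The BCL2 family decides whether the mitochondrial outer membrane stays intact. Bcl2, Bcl2l1 (BCL-XL) and Mcl1 hold the pore-forming proteins BAX and BAK in check, whereas the BH3-only proteins BIM (Bcl2l11), PUMA (Bbc3) and NOXA (Pmaip1) neutralize the protective members or activate the pore formers. XIAP blocks active caspases, and cIAP2 (Birc3) is a ubiquitin ligase of TNF receptor and NF-kB signaling. In fibroblasts the same mitochondrial step can amplify a signal from the death receptor Fas.

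Lung cells depleted of hematopoietic (CD45), endothelial (CD31) and epithelial (CD326) cells, termed Lin-, were isolated from mice in 5 groups: naive mice (labelled Control) and bleomycin-instilled mice at 3 or 6 weeks, either Fas+/+ (labelled WT) or Fas-/- (labelled FasDel). Per the study's methods, all bleomycin-instilled mice carried Col1a1-CreERT2 and Fas fl/fl. Those called Fas-/- had received tamoxifen and those called Fas+/+ corn oil, so Fas deletion and tamoxifen cannot be told apart, and deletion was possible only where the Col1a1 promoter drove Cre. The naive mice were Col1-CreERT2 and Fas fl/fl per the study, their injections are not stated in the sources used here, and the labels give no age. There were 4 bulk libraries per group and 5 single-cell libraries, 1 per condition and each from a pool of 4 mice. The labels do not state that the 4 bulk libraries of a group came from separate animals. The study's statistics section describes replicates as individual animals and refers to its figure legends. Its legend for bulk sequencing gives n = 4. By the labels alone, p-values measure the spread between libraries, whatever its source.

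Bulk total counts ran from 11819700 to 25189096 reads per library, with a median of 20122870. Fas RNA over the whole gene, which cannot show loss of the floxed exon, was 21.1 to 23.9 CPM (counts scaled to the library total after TMM normalization) in naive libraries, 33.97 to 57.7 in Fas+/+ and 34.4 to 64.9 in Fas-/- libraries at 3 weeks, and 26.2 to 39.7 and 35.6 to 46.6 at 6 weeks. RNA of endothelial cells, which the sort should remove, differed between groups. The summed level of 7 endothelial markers was 124 to 353 CPM in naive libraries, 1921 to 7514 in Fas+/+ and 508 to 6889 in Fas-/- libraries at 3 weeks, and 373 to 1423 and 74.4 to 2224 at 6 weeks. Replicate 1 of Fas+/+ and replicate 4 of Fas-/- mice at 3 weeks were the 2 highest libraries. They were also the lowest of their groups in 8 summed profibrotic markers. These were 14020 CPM (rest of the group 55780 to 68420) and 24800 CPM (rest of the group 47080 to 58870). Naive libraries had 16800 to 24760. Cycling markers were lowest of their groups in the same 2 libraries, at 21.3 and 26.6 CPM. Summed markers of 6 hematopoietic genes were 2.24 to 6.43 CPM in naive and 23.7 to 102 in 3-week libraries. Those of 5 erythroid genes were 2979 to 9589 CPM in naive and 17.1 to 235 in bleomycin libraries. Other classes moved too. Markers of epithelial cells, which the sort should also remove, summed to 48.2 to 119 CPM in naive libraries, 185 to 607 and 240.1 to 395 at 3 weeks (Fas+/+, Fas-/-) and 486 to 1327 and 128 to 377 at 6 weeks. Lipofibroblast markers were 8941 to 10510 CPM in naive libraries, 2966 to 5082 and 5046 to 6501 at 3 weeks and 6545 to 8278 and 7168 to 8748 at 6 weeks. Cycling markers were 12.6 to 60.6 CPM in naive libraries, 21.3 to 205 and 26.6 to 109 at 3 weeks and 9.40 to 22.2 and 4.86 to 12.9 at 6 weeks. Pericyte markers were 2831 to 3900 CPM in naive libraries, and 1832 to 2232 and 1232 to 2412 at 3 weeks. At 6 weeks they were 2494 to 3467 and 1858 to 2827. Vascular smooth muscle markers were 2794 to 4656 CPM in naive libraries, and 1853 to 2168 and 1023 to 2595 at 3 weeks. Inflammatory fibroblast markers rose from 208 to 221.6 CPM in naive libraries to 851.2 to 1245 and 591.5 to 1380 at 3 weeks. At 6 weeks they were 257.5 to 673 and 311.2 to 514.9. The part of these cells' RNA in the members' values was not tested. In bulk libraries, a change in the number of cells of a type and a change of RNA per cell cannot be told apart.

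Positions of 9 members are given on GRCm38. Bcl2 is at chr1:106538178-106714274, Bcl2l1 at chr2:152780668-152831728, Bcl2l11 at chr2:128126038-128162547, Mcl1 at chr3:95658788-95663176 and Birc3 at chr9:7848699-7873186. Bax is at chr7:45461697-45466898, Bbc3 at chr7:16308393-16318205, Bak1 at chr17:27019810-27029009 and Xiap at chrX:42059679-42109656. All 10 are annotated as protein-coding, and counts cover all their exons.

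Promoter windows of 250 bases before the RefSeq gene start (build GRCm38.p6) were read for 9 of the 10 members, 16 windows in all. Those of Bcl2, which fell at 3 weeks, and of Bax and Bak1, the pore formers that rose, are shown 5′ to 3′, with a match to the p53 half-site in capitals.
Bcl2 (chr1:106714291-106714540, minus strand): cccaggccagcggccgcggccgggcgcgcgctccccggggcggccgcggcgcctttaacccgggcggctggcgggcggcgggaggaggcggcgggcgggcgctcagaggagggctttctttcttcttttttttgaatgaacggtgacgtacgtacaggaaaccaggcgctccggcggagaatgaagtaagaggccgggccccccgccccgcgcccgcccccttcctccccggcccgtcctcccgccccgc
Bax (chr7:45466899-45467148, minus strand): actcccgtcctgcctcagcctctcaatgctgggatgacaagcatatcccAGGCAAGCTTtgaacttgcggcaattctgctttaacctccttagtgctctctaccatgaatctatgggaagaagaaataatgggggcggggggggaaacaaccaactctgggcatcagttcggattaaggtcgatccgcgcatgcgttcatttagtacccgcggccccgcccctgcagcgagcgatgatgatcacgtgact
Bak1 (chr17:27028628-27028877, minus strand): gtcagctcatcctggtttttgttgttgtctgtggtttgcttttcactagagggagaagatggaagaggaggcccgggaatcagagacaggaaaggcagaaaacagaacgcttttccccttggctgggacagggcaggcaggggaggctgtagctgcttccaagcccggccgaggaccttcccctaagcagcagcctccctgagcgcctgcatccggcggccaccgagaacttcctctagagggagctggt
The p53 half-site was searched on both strands and occurred in 1 of the 16 windows, that of Bax, starting 201 bases before the gene start. Of all 32851 mouse windows, 7.13% held one. The NF-kB consensus motif, also searched on both strands, lay in 3 of the 16 windows, 1 each of Bcl2l1, Mcl1 and Bbc3, against 1.41% of all windows. This form was not in the Birc3 window. Other forms of the NF-kB site were not searched, so their absence there is not shown.

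In naive lungs Mcl1 was the most abundant member per length, at 66.1 ± 6.69 CPM per kilobase of exons (SD, n = 4), followed by Bax at 16.7 ± 1.05, Bcl2l1 at 15.4 ± 0.982 and Bak1 at 11.3 ± 2.05. The values of Bax and Bcl2l1 did not differ beyond their spread. Birc3 at 6.94 ± 0.794, Xiap at 6.576 ± 0.5003 and Bcl2 at 5.47 ± 0.354 formed the middle of the order. Bcl2l11 at 3.94 ± 0.600 and Bbc3 at 2.79 ± 0.655 were lower. Pmaip1 was nearly silent, at 0.119 ± 0.0265, on 6 to 10 reads per library.

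**Figure D1:**
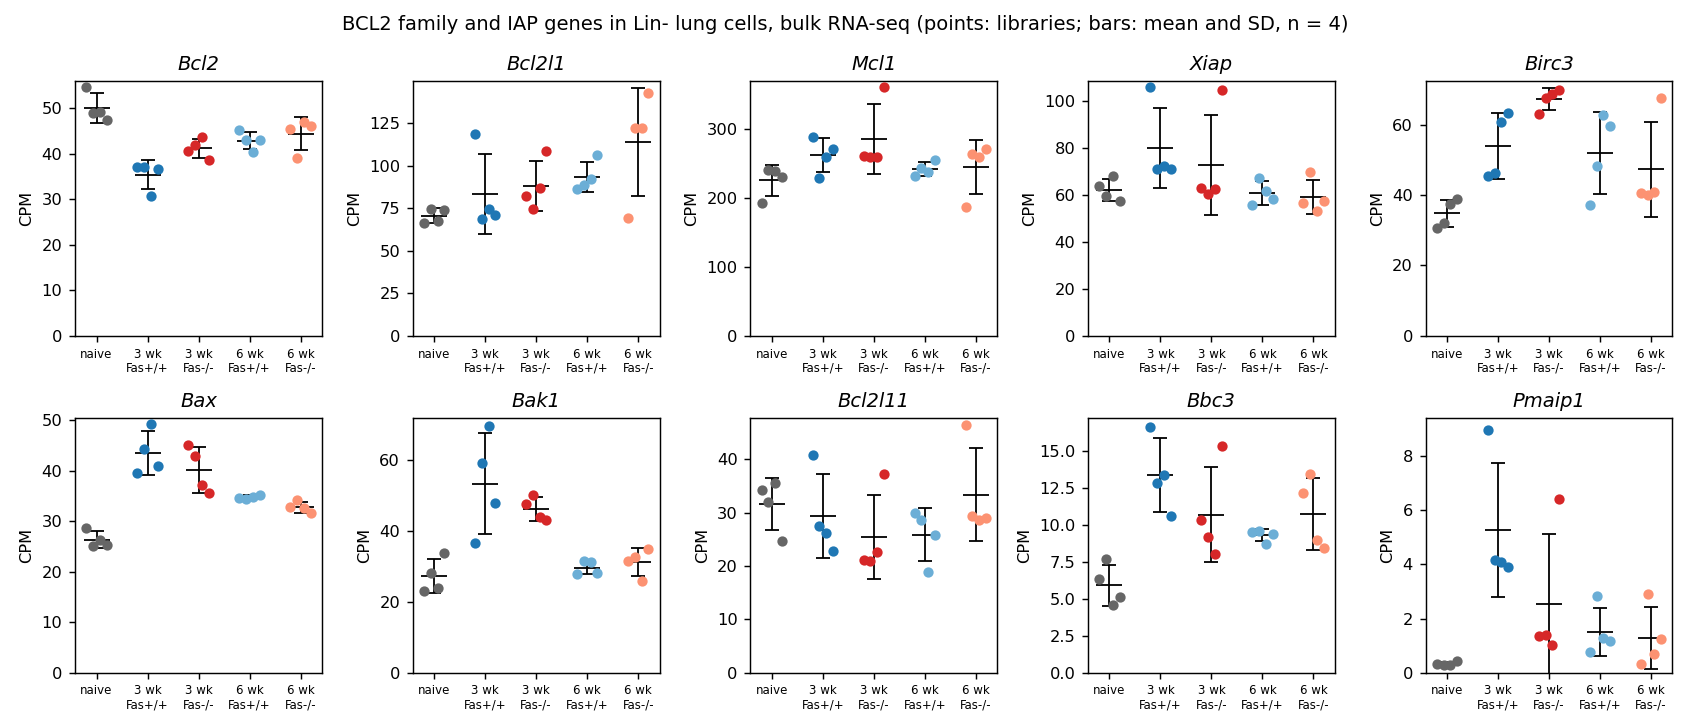
Level of each member (y axis, CPM) in the 20 bulk libraries by group (x axis). Points are libraries and bars give the mean and SD (n = 4, cut at 0). At 3 weeks Bcl2 lay below and Bax, Bak1, Bbc3, Pmaip1 and Birc3 above the naive libraries in both genotypes. Week 6 libraries mostly lay between.

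At 3 weeks after bleomycin, 4 of the 5 pro-apoptotic members (Bax, Bak1, Bbc3 and Pmaip1) were higher than in naive mice in both genotypes. Bcl2 was lower, and Birc3 was higher. In Fas+/+ mice 5 members rose and 1 fell. Among all genes tested 22.1% rose and 19.2% fell in this comparison. In Fas-/- mice 6 rose and 1 fell, where 17.2% and 14.8% of all genes did. The median log2 fold change of the 10 members was 0.50 in Fas+/+ and 0.47 in Fas-/- mice, against 0.01 and 0.02 over all genes. The naive libraries are shared by these comparisons. Calls used edgeR's quasi-likelihood test at a Benjamini-Hochberg adjusted p of 0.05, and all log2 values in bulk are fold changes of CPM.

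Bcl2, the founding survival gene, measured 54.8, 49.1, 49.1 and 47.4 CPM in naive libraries and 37.2, 37.0, 30.7 and 36.7 in Fas+/+ libraries at 3 weeks. Fas-/- libraries gave 40.6, 42.02, 43.7 and 38.7. Every bleomycin library at 3 weeks was below every naive library. The log2 fold change was -0.50 ± 0.0747 (SE, adjusted p = 7.12e-05) in Fas+/+ and -0.28 ± 0.0743 (adjusted p = 0.00884) in Fas-/- mice. Bcl2l1 was 66.2 to 74.8 CPM in naive, 68.7 to 118 in Fas+/+ and 74.5 to 108 in Fas-/- libraries, which overlap, and was not called in either genotype (log2 0.24, adjusted p = 0.339, and 0.32, adjusted p = 0.216). Mcl1, whose short-lived protein buffers BIM and NOXA, was 192 to 241 CPM in naive libraries. It was 230 to 289 in Fas+/+ libraries (log2 0.22, adjusted p = 0.170). In Fas-/- libraries it measured 261, 259, 260 and 361 and rose by 0.34 ± 0.124 (adjusted p = 0.0454). The Mcl1 call was lost without the filter on low counts (adjusted p = 0.0737), with only the compared groups in the fit (0.0865) and with the endothelial covariate (log2 0.04, adjusted p = 0.815). Without the library highest in endothelial markers of each bleomycin group it was 0.19 (adjusted p = 0.184). It was also lost without any 1 of the 4 naive libraries (adjusted p = 0.0561 to 0.161), without Fas-/- replicate 2 (0.0507) and without Fas-/- replicate 4, the library at 361 CPM (log2 0.19, adjusted p = 0.2).

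Of the pore formers, Bax measured 28.7, 25.1, 26.3 and 25.3 CPM in naive libraries. It rose to 39.6, 44.4, 49.3 and 40.9 in Fas+/+ and to 45.2, 42.9, 37.1 and 35.7 in Fas-/- libraries. No 3-week library overlapped the naive group. The log2 fold changes were 0.72 ± 0.0793 (adjusted p = 4.49e-06) and 0.61 ± 0.0791 (adjusted p = 4.24e-05). Bak1 went from 23.1, 28.1, 23.97 and 33.9 CPM to 36.5, 59.0, 69.6 and 48.0 in Fas+/+ and 47.5, 50.3, 43.8 and 43.1 in Fas-/- libraries. Its spread was widest in Fas+/+ mice, but the groups again did not overlap with naive. Its log2 fold changes were 0.96 ± 0.158 (adjusted p = 0.000164) and 0.76 ± 0.158 (adjusted p = 0.00174). Overlapping genes may share reads with Bcl2 (antisense D630008O14Rik), Bax (Gm45808) and Bak1 (antisense Ggnbp1), and whether counting used strand is not given in the sources used here.

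Among the BH3-only genes, Bbc3 (PUMA), a classical p53 target, measured 6.33, 7.71, 4.59 and 5.11 CPM in naive libraries. At 3 weeks it was 16.7, 12.9, 13.4 and 10.6 in Fas+/+ and 10.3, 9.19, 8.03 and 15.3 in Fas-/- libraries, all above naive. It rose by 1.17 ± 0.209 (adjusted p = 0.000336) and 0.85 ± 0.208 (adjusted p = 0.00533) on the log2 scale. Bcl2l11 (BIM) did not follow. It was 24.8 to 35.5 CPM in naive, 22.9 to 40.8 in Fas+/+ and 20.9 to 37.2 in Fas-/- libraries, and was not called (log2 -0.11 and -0.31, adjusted p = 0.728 and 0.297).

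Pmaip1 (NOXA) had the largest fold changes of the 10 members at 3 weeks and the widest spread. It measured 0.280 to 0.433 CPM in naive libraries. In Fas+/+ mice it was 8.98, 4.15, 4.08 and 3.90 CPM, and in Fas-/- mice 1.35, 1.40, 1.02 and 6.42. The highest library of each group was the one highest in endothelial markers. Log2 fold changes were 4.00 ± 0.713 (adjusted p = 0.000333) and 2.94 ± 0.708 (adjusted p = 0.00484). With the endothelial marker level as a covariate they were 1.27 (adjusted p = 0.0421) and 0.75 (adjusted p = 0.160). Without the library highest in endothelial markers of each bleomycin group they were 3.61 (adjusted p = 6.3e-07) and 1.92 (adjusted p = 0.000803).

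**Figure D2:**
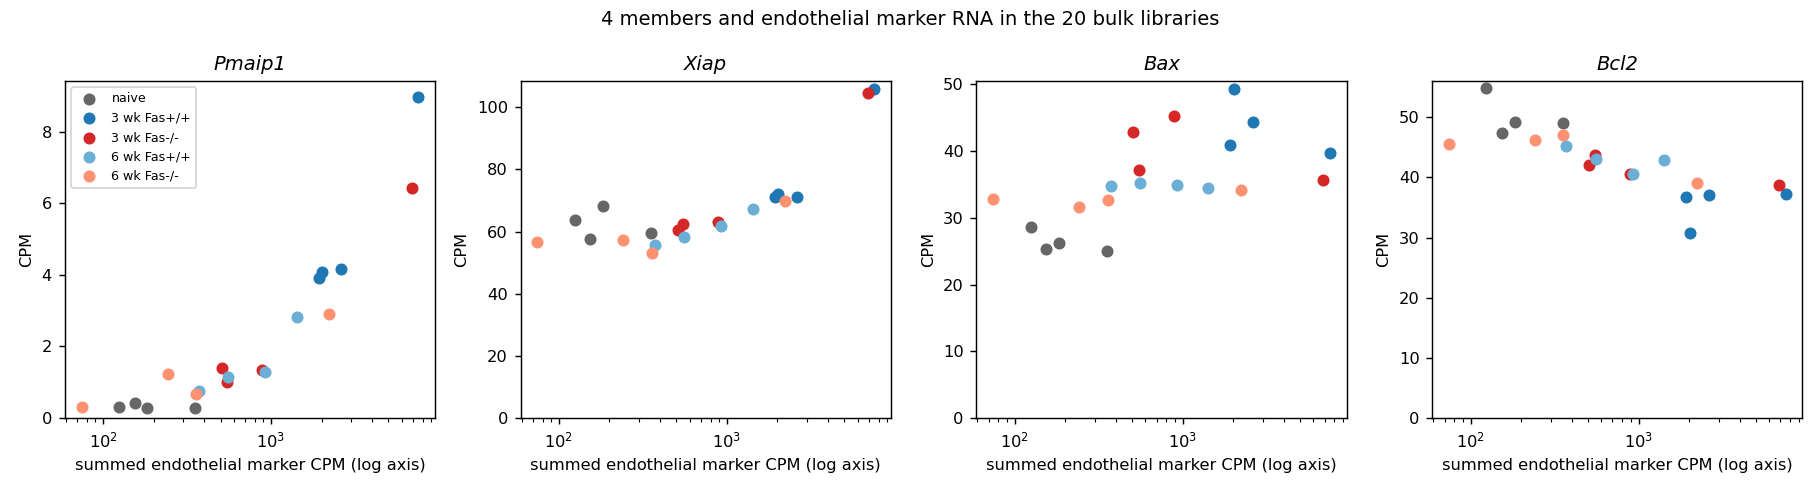
Level of Pmaip1, Xiap, Bax and Bcl2 (y axis, CPM) against the summed level of 7 endothelial markers (x axis, CPM, log axis) in the 20 bulk libraries. Each point is a library, colored by group. Pmaip1 and Xiap were highest in the same 2 libraries, replicate 1 of Fas+/+ (7514 CPM of markers) and replicate 4 of Fas-/- mice at 3 weeks (6889). Bax was not.

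The IAP genes differed from each other. Birc3, itself an NF-kB target, measured 30.7, 32.1, 37.4 and 38.9 CPM in naive libraries, 45.3, 46.4, 60.6 and 63.3 in Fas+/+ and 63.0, 67.7, 68.8 and 70.0 in Fas-/- libraries at 3 weeks. All 3-week libraries exceeded the naive ones, and all but 1 of the Fas-/- libraries exceeded every Fas+/+ library. The log2 fold changes over naive were 0.63 ± 0.178 (adjusted p = 0.00878) and 0.95 ± 0.178 (adjusted p = 0.000781). Xiap was 57.6 to 68.2 CPM in naive libraries. In Fas+/+ mice it was 106, 71.1, 72.2 and 71.1, and in Fas-/- mice 63.2, 60.5, 62.5 and 105. All Fas+/+ libraries were above naive, whereas the Fas-/- libraries overlapped with naive. Xiap was not called in either genotype (log2 0.36, adjusted p = 0.0806, and 0.22, adjusted p = 0.308). The 2 high libraries had the most endothelial marker RNA and, within their groups, the least profibrotic marker RNA. The part of either in the Pmaip1 and Xiap values was not tested beyond the fits with endothelial markers as a covariate or without those libraries.

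With the endothelial marker level as a covariate, Bcl2 (log2 -0.35, adjusted p = 0.0239), Bax (0.82, adjusted p = 0.000247) and Bak1 (1.07, adjusted p = 0.00344) remained called in Fas+/+ mice at 3 weeks. Bbc3 (0.63, adjusted p = 0.0751) and Birc3 (0.72, adjusted p = 0.0578) did not. In Fas-/- mice Bax (0.68, adjusted p = 0.000180), Bak1 (0.84, adjusted p = 0.00503) and Birc3 (1.02, adjusted p = 0.00371) remained. Bcl2 (-0.18, adjusted p = 0.138), Bbc3 (0.46, adjusted p = 0.119), Pmaip1 (0.75, adjusted p = 0.16) and Mcl1 (0.04, adjusted p = 0.815) did not. Endothelial sums of naive libraries (124 to 353 CPM) did not overlap those at 3 weeks (1921 to 7514 in Fas+/+ and 508 to 6889 in Fas-/- mice). This fit therefore cannot fully tell marker level and group apart. Over all genes it called 3896 instead of 6517 in Fas+/+ and 4102 instead of 5045 in Fas-/- mice.

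**Figure D3:**
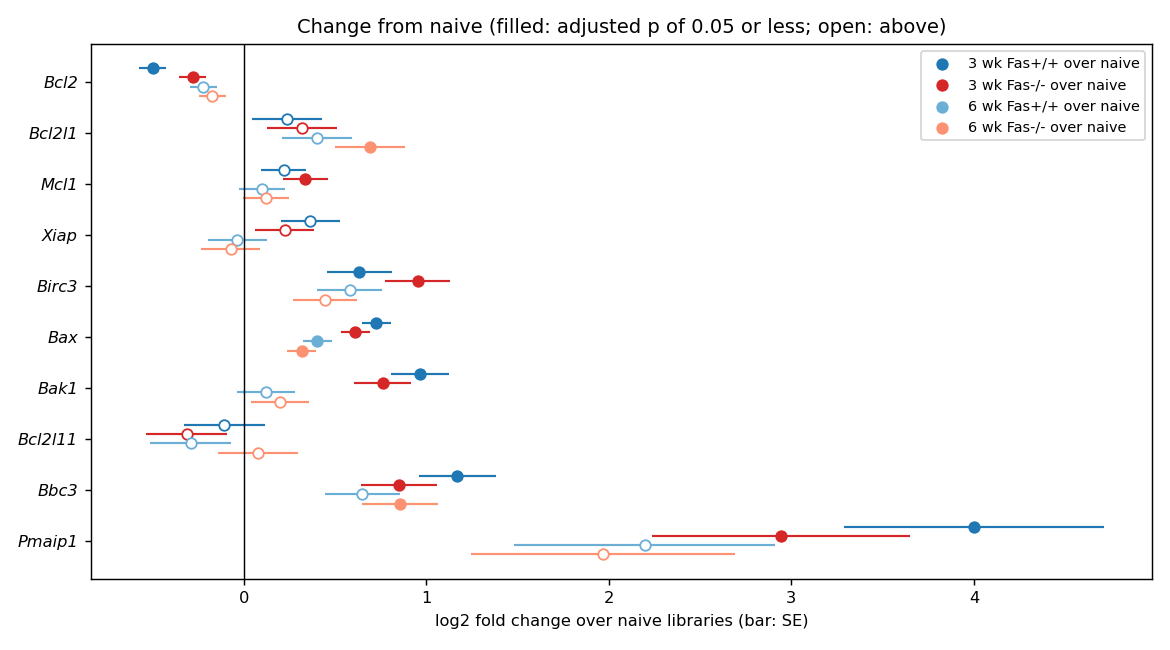
Log2 fold change over naive libraries (x axis, bars give the SE) of each member (y axis) in the 4 bleomycin groups, 4 libraries each. Filled points passed an adjusted p of 0.05 and open points did not. Pmaip1 reached 4.00 in Fas+/+ mice at 3 weeks, and Bax is filled in all 4 groups.

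At 6 weeks fewer members differed from naive mice, and Bax was the one called in both genotypes. It measured 34.7, 34.4, 34.9 and 35.2 CPM in Fas+/+ and 32.8, 34.2, 32.6 and 31.6 in Fas-/- libraries, all above every naive library. Its log2 fold changes over naive were 0.40 ± 0.0790 (adjusted p = 0.00528) and 0.32 ± 0.0791 (adjusted p = 0.0229). In Fas+/+ mice Bax was the single member called among the 10, where 3.57% of all genes rose and 1.74% fell. In Fas-/- mice 3 members rose and none fell, where 3.66% and 2.81% of all genes did.

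The other 2 members called in Fas-/- mice at 6 weeks were Bbc3 and Bcl2l1. Bbc3 measured 12.2, 13.5, 8.98 and 8.46 CPM and had a log2 fold change of 0.86 ± 0.208 (adjusted p = 0.0201). In Fas+/+ libraries it was 9.56, 9.58, 8.73 and 9.42, also all above naive, but at an adjusted p of 0.0801 (log2 0.65). Bcl2l1 measured 69.0, 122, 122 and 143 CPM in Fas-/- libraries, of which 1 lay within the naive range. Its log2 fold change was 0.69 ± 0.192 (adjusted p = 0.0394). The Bcl2l1 call was lost without the filter on low counts (adjusted p = 0.0505), with a replicate block (0.0575) and in 7 of 8 fits that left out 1 library, all but that without Fas-/- replicate 1 (adjusted p = 0.0695 to 0.132). In Fas+/+ libraries it was 86.1, 88.4, 92.1 and 106 CPM, all above naive, with a log2 fold change of 0.40 (adjusted p = 0.258). No member was called in Fas-/- mice without naive replicate 3, naive replicate 4 or Fas-/- replicate 2. These fits called 549, 686 and 560 of all genes, against 1022 in the main fit. The Bax call in Fas-/- mice was also lost without naive replicate 2 or Fas-/- replicate 3. That of Bbc3 was also lost without Fas-/- replicate 1. In that order the fits called 651, 819 and 843 of all genes. At 6 weeks DESeq2 called 5 members in Fas+/+ and 4 in Fas-/- mice. Of all 15773 genes it called 1423 and 1586, where edgeR called 837 and 1022.

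The remaining members at 6 weeks gave these values. Bcl2 was 40.5 to 45.2 CPM in Fas+/+ and 39.0 to 47.1 in Fas-/- libraries, below the 47.4 of the lowest naive library, with log2 values of -0.22 (adjusted p = 0.0939) and -0.17 (adjusted p = 0.189). Bak1 was back within or near the naive range, at 27.7 to 31.4 and 25.9 to 35.0 CPM. Pmaip1 was 0.767 to 2.82 and 0.313 to 2.92 CPM (log2 2.20, adjusted p = 0.0856, and 1.97, adjusted p = 0.119). Birc3 was 37.2 to 62.8 and 40.1 to 67.6 CPM (log2 0.58, adjusted p = 0.0665, and 0.44, adjusted p = 0.152). Mcl1, Bcl2l11 and Xiap overlapped the naive libraries in both genotypes, with log2 values between -0.29 and 0.12.

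The pore formers and Bcl2 were then compared between 6 and 3 weeks. In Fas+/+ mice Bcl2 rose by 0.28 ± 0.0747 (adjusted p = 0.0127), whereas Bax fell by 0.32 ± 0.0788 (adjusted p = 0.00709), Bak1 fell by 0.84 ± 0.158 (adjusted p = 0.00128) and Pmaip1 fell by 1.80 ± 0.615 (adjusted p = 0.0418), all on the log2 scale. That is 1 member higher and 3 lower, where 12% of all genes were higher and 10.9% lower. Bax was 34.4 to 35.2 CPM at 6 weeks and 39.6 to 49.3 at 3 weeks, with no overlap. In Fas-/- mice Bax fell by 0.29 ± 0.0789 (adjusted p = 0.0285) and Bak1 fell by 0.56 ± 0.157 (adjusted p = 0.0346). These 2 were the members called, none was higher, and 4.48% of all genes were higher and 4.54% lower. Bcl2 in Fas-/- mice differed by 0.11 ± 0.0745 (adjusted p = 0.377). Leaving out any single library of the Fas-/- groups left 0 or 1 member called between weeks, and in Fas+/+ mice Bcl2 (log2 0.20, adjusted p = 0.0796) and Pmaip1 (log2 -0.57, adjusted p = 0.187) were not called with the endothelial covariate. The Pmaip1 call in Fas+/+ mice was also lost without the filter on low counts. Among the fits that left out 1 library, it held only without replicate 4 at 3 weeks or replicate 2 at 6 weeks.

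Genotypes, which differed in Fas deletion and tamoxifen together, were compared within a week. In its single-cell data the study reports that some cells of Fas-/- mice still expressed the floxed exon. No member was called at either time by edgeR or DESeq2. Over all genes tested at 3 weeks, 0.165% had more and 0.00634% less RNA in the Fas-/- group, and at 6 weeks 0.0254% and 0.0254%. At an unadjusted p below 0.05 there was 1 member at 3 weeks and 0 at 6 weeks, where 1359 and 1273 of all 15773 genes were. The 1 member was Bcl2, at 38.7 to 43.7 CPM in Fas-/- and 30.7 to 37.2 in Fas+/+ libraries, which do not overlap. Its log2 difference was 0.22 ± 0.0747 (adjusted p = 0.330 in edgeR's quasi-likelihood test). Birc3 differed by 0.32 ± 0.177 (adjusted p = 0.667) and Pmaip1 by -1.06 ± 0.597 (adjusted p = 0.684). At 6 weeks Bax was 31.6 to 34.2 CPM in Fas-/- and 34.4 to 35.2 in Fas+/+ libraries, without overlap, and differed by -0.08 ± 0.0789 (adjusted p = 0.920). Without the library highest in endothelial markers of each bleomycin group, an alternative chosen after seeing the data, 2 members were called at 3 weeks. These were Bcl2 (0.26, adjusted p = 0.0453) and Pmaip1 (-1.69, adjusted p = 0.00577). Over all genes that fit called 1289 of 15846, against 27 of 15773 in the main fit. When Fas-/- replicate 4 alone was left out, Pmaip1 was called, as were 582 of 16011 genes.

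The change between weeks was also compared between genotypes as an interaction. Neither edgeR nor DESeq2 called a member, and the count of members at an unadjusted p below 0.05 was 0. Of all genes, 0% had a higher and 0.00634% a lower interaction term. Member terms, the 6-minus-3-week change in Fas-/- minus that in Fas+/+ mice, ran from -0.46 ± 0.250 for Birc3 (adjusted p = 0.713) to 0.83 ± 0.870 for Pmaip1 (adjusted p = 0.917). That of Bcl2 was -0.17 ± 0.105 (adjusted p = 0.781).

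The balance of survival and death genes was expressed as ratios of counts per kilobase of exons within a library, so that each library serves as its own scale. Bcl2 over Bax was 0.322 to 0.337 in naive libraries, the tightest range of the 5 groups. It was 0.107 to 0.162 in Fas+/+ and 0.155 to 0.202 in Fas-/- libraries at 3 weeks, and 0.2 to 0.224 and 0.196 to 0.252 at 6 weeks. No bleomycin library reached the naive range. On the log2 scale the ratio changed from naive by -1.23 and -0.89 at 3 weeks and by -0.63 and -0.49 at 6 weeks. Each of these gave p = 0.0286 in a two-sided exact permutation test, the smallest that 4 against 4 libraries allow, and an adjusted p of 0.105 over the 48 ratio comparisons made. From 3 to 6 weeks the ratio differed by 0.60 in Fas+/+ mice (exact permutation p = 0.0286, adjusted p = 0.105, no overlap). In Fas-/- mice the ratio differed by 0.39 (exact permutation p = 0.0571, adjusted p = 0.125). Ratios without any overlap still had an adjusted p of 0.105, so the adjustment cannot decide whether a ratio changed. Between genotypes the ratio of Bcl2 over Bax differed by 0.34 at 3 weeks (exact permutation p = 0.0571) and 0.13 at 6 weeks (0.2).

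Bcl2 over Bak1 was 0.367 to 0.624 in naive libraries, 0.116 to 0.268 in Fas+/+ and 0.220 to 0.262 in Fas-/- libraries at 3 weeks. At 6 weeks it was 0.341 to 0.428 and 0.314 to 0.479, overlapping with naive. Bcl2l1 over Bak1 was 1.148 to 1.504 in naive libraries, 0.563 to 1.70 in Fas+/+ and 0.778 to 1.32 in Fas-/- libraries at 3 weeks, and 1.475 to 1.97 and 1.148 to 2.483 at 6 weeks. These groups overlapped with naive, and the genotypes differed at 6 weeks by 0.17 on the log2 scale (exact permutation p = 0.571). Bcl2 over Bcl2l11 overlapped with naive in all 4 bleomycin groups.

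**Figure D4:**
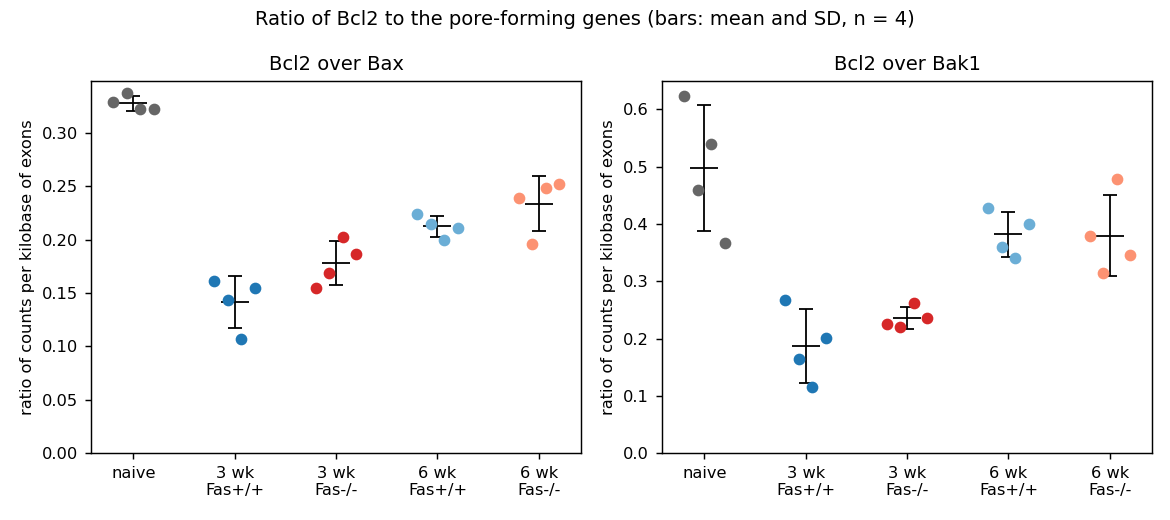
Ratio of Bcl2 to Bax (left) and Bcl2 to Bak1 (right), in counts per kilobase of exons (y axis), in the 20 bulk libraries by group (x axis). Points are libraries and bars the mean and SD (n = 4). For Bax the naive libraries sit at 0.322 to 0.337 and every bleomycin library at 0.252 or lower.

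Genes around the members in the pathway were taken from 6 lists. Their counts are to be read against the shares of all genes called, 22.1% higher and 19.2% lower in Fas+/+ and 17.2% and 14.8% in Fas-/- mice at 3 weeks, and 3.57% and 1.74%, and 3.66% and 2.81%, at 6 weeks. Among p53 targets, 10 of 14 rose and 2 fell at 3 weeks in Fas+/+ mice and 9 rose and 2 fell in Fas-/- mice (list medians 0.66 and 0.68 on the log2 scale). The 14 include Fas itself, the floxed gene. Its mean was 22.1 CPM in naive libraries and 31.4 and 40.4 in Fas+/+ and Fas-/- libraries at 6 weeks. Cdkn1a, the cell cycle inhibitor p21, went from 59.1 to 211 CPM in Fas+/+ and 192 in Fas-/- mice (log2 1.84 ± 0.164, adjusted p = 7.02e-07, and 1.70 ± 0.163, adjusted p = 3.06e-06). Mdm2, the ligase that degrades p53, rose by 0.80 and 0.78, Gtse1 by 2.74 and 2.33, Eda2r by 1.05 and 1.00, Phlda3 by 0.84 and 0.85 and the death receptor gene Tnfrsf10b by 2.48 and 2.25. The 2 that fell were Perp (log2 -0.84 and -0.60) and Sesn1, which fell in both genotypes (log2 -0.78, adjusted p = 0.000373, and -0.66, adjusted p = 0.00199). At 6 weeks 5 of 14 rose in Fas+/+ and 8 of 14 in Fas-/- mice, with Cdkn1a at 1.41 and 1.65.

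Of 12 NF-kB targets, 11 rose and none fell at 3 weeks in each genotype (medians 1.15 and 1.23). Bcl3, a nuclear IkB protein, rose by 1.83 and 1.76, the subunit gene Nfkb1 by 0.32 and 0.42, Nfkbie by 1.56 and 1.51, Traf1 by 1.38 and 1.19, Relb by 0.82 and 1.00 and Tnfaip3 (A20) by 1.37 and 1.74 in Fas+/+ and Fas-/- mice. At 6 weeks 6 rose in Fas+/+ and 4 in Fas-/- mice.

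Apoptosome and caspase genes rose in part, 7 of 14 in Fas+/+ and 5 of 14 in Fas-/- mice at 3 weeks, with none lower (medians 0.33 and 0.22). Apaf1, the scaffold that activates caspase 9, rose by 0.94 ± 0.105 (adjusted p = 5.12e-06) and 0.61 ± 0.105 (adjusted p = 0.000442). The mitochondrial channel genes Vdac2 and Vdac3 rose by 0.42 and 0.53 in Fas+/+ and by 0.28 and 0.39 in Fas-/- mice. Cycs, cytochrome c, rose by 0.46 and 0.37. Apaf1 fell by 0.78 in Fas+/+ and by 0.46 in Fas-/- mice between 3 and 6 weeks, on the log2 scale. At 6 weeks 2 of 14 rose in Fas+/+ and 1 in Fas-/- mice.

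Of 16 other BCL2 family genes, 10 were tested. In Fas+/+ mice at 3 weeks 4 rose and none fell, and in Fas-/- mice 2 rose and 2 fell (medians 0.04 and 0.03). Bid, which caspase 8 cleaves downstream of Fas, went from 1.52 to 6.15 CPM in Fas+/+ and 5.18 in Fas-/- mice (log2 2.00 ± 0.245, adjusted p = 1.13e-05, and 1.76 ± 0.243, adjusted p = 6.73e-05). It stayed called at 6 weeks, at 1.15 (adjusted p = 0.00886) and 1.26 (adjusted p = 0.00499). Bcl2l13 rose by 0.39 and 0.22, and Bok by 0.95 and Bik by 1.94 in Fas+/+ mice. Bmf, a BH3-only gene, fell in Fas-/- mice at 3 weeks (log2 -0.76, adjusted p = 0.00723), as did Bnip3 (-0.40, adjusted p = 0.0191). At 6 weeks Bmf was 38.1 to 65.4 CPM in Fas-/- and 19.2 to 27.1 in Fas+/+ libraries, without overlap (log2 0.95 ± 0.196, adjusted p = 0.101), and between weeks it rose in Fas-/- mice by 1.12 (adjusted p = 0.0031). Of 12 other IAPs and IAP antagonists, 10 were tested, and 3 rose and 2 fell in Fas+/+ and 3 rose and 1 fell in Fas-/- mice (medians 0.24 and 0.54). Sept4, whose product ARTS antagonizes XIAP, fell by 0.88 and by 0.51. Birc5 (survivin), which rises in dividing cells, rose by 2.24 in Fas+/+ mice. Xaf1 rose by 1.21 in Fas-/- mice. Diablo, which releases caspases from IAPs, fell by 0.12 in Fas+/+ mice. Naip2 and Naip5 are near-identical copies whose values are uncertain.

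In both genotype comparisons, 0 genes of these lists were called by edgeR. A list of 14 genes that respond to tissue dissociation gave 1 higher (Ier3) and 3 lower genes (Fos, Jund and Fosb) in Fas+/+ and 1 higher in Fas-/- mice at 3 weeks, with medians of -0.25 and 0.08.

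Across the 20 libraries, which share their groups and their cell makeup, some members varied together or against each other. Bcl2 ran against Bax (Pearson's r = -0.825), Bak1 (-0.816) and Pmaip1 (-0.850), and Bax ran with Bak1 (0.814). Bcl2l1 was near 0 with Bax (0.024), Bak1 (-0.155) and Bcl2 (-0.103). The genes most like Bax over the 20 libraries were Pus1 (r = 0.970), Ass1 (0.95) and Klhdc8a (0.939), and those most like Bak1 were Fscn1 (0.974), Prelid1 (0.967) and Rin1 (0.966). Bcl2 was most like Ralgps2 (0.942), Gabpb2 (0.94) and Itpr1 (0.936). Birc3 was most like Relb (0.901), Mt2 (0.885) and Nfkb2 (0.879), of which Relb and Nfkb2 encode NF-kB subunits. Pmaip1 was most like Dnah12 (0.979), H2-Eb1 (0.975) and H2-Ab1 (0.975), the last pair MHC class II genes. Mcl1 was most like Prkx (0.883), Rela (0.872) and Klf6 (0.870), Bbc3 like Zfp125 (0.924), Tbc1d22a (0.924) and H2-DMb1 (0.897), and Bcl2l1 like Jade2 (0.903), Klf13 (0.898) and Nampt (0.889).

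Single-cell libraries were used to ask which cells carry these RNAs. Of 13900 barcodes, 12059 cells were kept and fell into 23 clusters, built without the members and the pathway lists. Clusters were named by listed markers and 4 clusters with 2733 cells stayed unnamed. The week labels of the single-cell libraries go against the bulk data. Of 1806 genes higher at week 6 than at week 3 in bulk Fas+/+ libraries, 5.1% were higher in the single-cell library labelled week 6, and of 1653 lower genes 1.8% were lower. For Fas-/- mice these shares were 8.1% of 683 and 4.0% of 654. Summed profibrotic markers were 5543 and 7377 CPM in the libraries labelled week 3 (Fas+/+, Fas-/-) and 15040 and 20680 in those labelled week 6. In bulk the same sum was 14020 to 68420 and 24800 to 58870 at 3 weeks and 17870 to 23430 and 22840 to 33180 at 6 weeks. The labels were kept as deposited, so a library is called by its label and no time course is drawn from these libraries.

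In addition, 1502 cells had a barcode that also occurred in another library. In the naive library these were 344 of 603 cells, with a median of 12178 UMIs, against 759 to 1130 in the other libraries. A doublet caller marked 46 cells, too few to have worked, so doublets were not removed. With 1 library per condition no test between conditions is possible. Levels are UMIs per 10000 UMIs summed over the cells of a class, and intervals are exact 95% Poisson intervals that cover counting error only.

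The classes differed in which members they carried. Pericyte-like cells had the highest Bcl2 of all named classes, at 1.24, 1.24, 1.33, 1.19 and 1.25 UMIs per 10000 in the libraries labelled naive, week 3 Fas+/+, week 3 Fas-/-, week 6 Fas+/+ and week 6 Fas-/-. Vascular smooth muscle-like cells followed at 0.760 to 0.977. Lipofibroblast-like cells had 0.460 to 0.613 and mesothelial-like cells 0.285 to 0.344. The 5 pericyte-like values lay above all values of the other fibroblast and mural classes.

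Endothelial-like cells remained in the Lin- libraries, with 135 to 691 cells in the 4 bleomycin libraries. These counts leave out an unnamed cluster of 729 cells that also had endothelial genes. By the mean over libraries, Xiap and Bbc3 were highest in endothelial-like cells. Xiap was 2.18 to 2.72 there, against 0.637 to 0.705 in lipofibroblast-like cells, a ratio of 3.34 to 4.20 within libraries. Bbc3 was 0.429 to 0.588, against 0.0395 to 0.0975. Endothelial-like cells also had more Bcl2l1 (1.00 to 1.39) than the fibroblast classes, of which lipofibroblast-like cells had most (0.375 to 0.701).

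Few Pmaip1 UMIs came from fibroblast classes. Endothelial-like cells gave 12, 5, 94 and 17 UMIs in the libraries labelled week 3 Fas+/+, week 3 Fas-/-, week 6 Fas+/+ and week 6 Fas-/-, or 0.122, 0.0894, 0.195 and 0.201 per 10000. Lipofibroblast-like cells gave 0, 0, 1 and 1 UMIs and profibrotic-like cells 0, 0, 6 and 6. Inflammatory fibroblast-like, pericyte-like and vascular smooth muscle-like cells gave 0 in every library. Over all libraries the unnamed clusters gave 46 UMIs, mesothelial-like cells 24 and erythroid-like cells 16, the last at up to 0.127 per 10000. Among the unnamed clusters, 1 of 729 cells had Vwf, Lyve1 and Ptprb, genes of endothelial cells, among its 10 leading genes. A count of 0 allowed up to 0.00817 per 10000 in lipofibroblast-like cells of the library labelled week 3 Fas+/+.

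By the mean over libraries, Birc3 was highest in inflammatory fibroblast-like cells, the class marked by Saa3 and Lcn2, at 0.671, 0.309, 0.518 and 0.631 in the 4 bleomycin libraries in the order given above. Col14a1-like adventitial cells had 0.306 to 0.554 and lipofibroblast-like cells 0.112 to 0.417. Mcl1 was highest in epithelial-like cells (4.01 to 4.78), then in endothelial-like cells (3.25 to 4.52), and was 1.63 to 2.01 in mesothelial-like cells. Bax was 0.810 to 1.14 in lipofibroblast-like and 1.28 to 1.86 in pericyte-like cells. It was 1.43 to 1.94 in endothelial-like cells and 1.40 to 2.45 in erythroid-like cells, the class highest by the mean over libraries. Bak1 was 0.268 to 0.580 in endothelial-like, 0.193 to 0.454 in profibrotic-like and 0.125 to 0.179 in lipofibroblast-like cells.

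**Figure D5:**
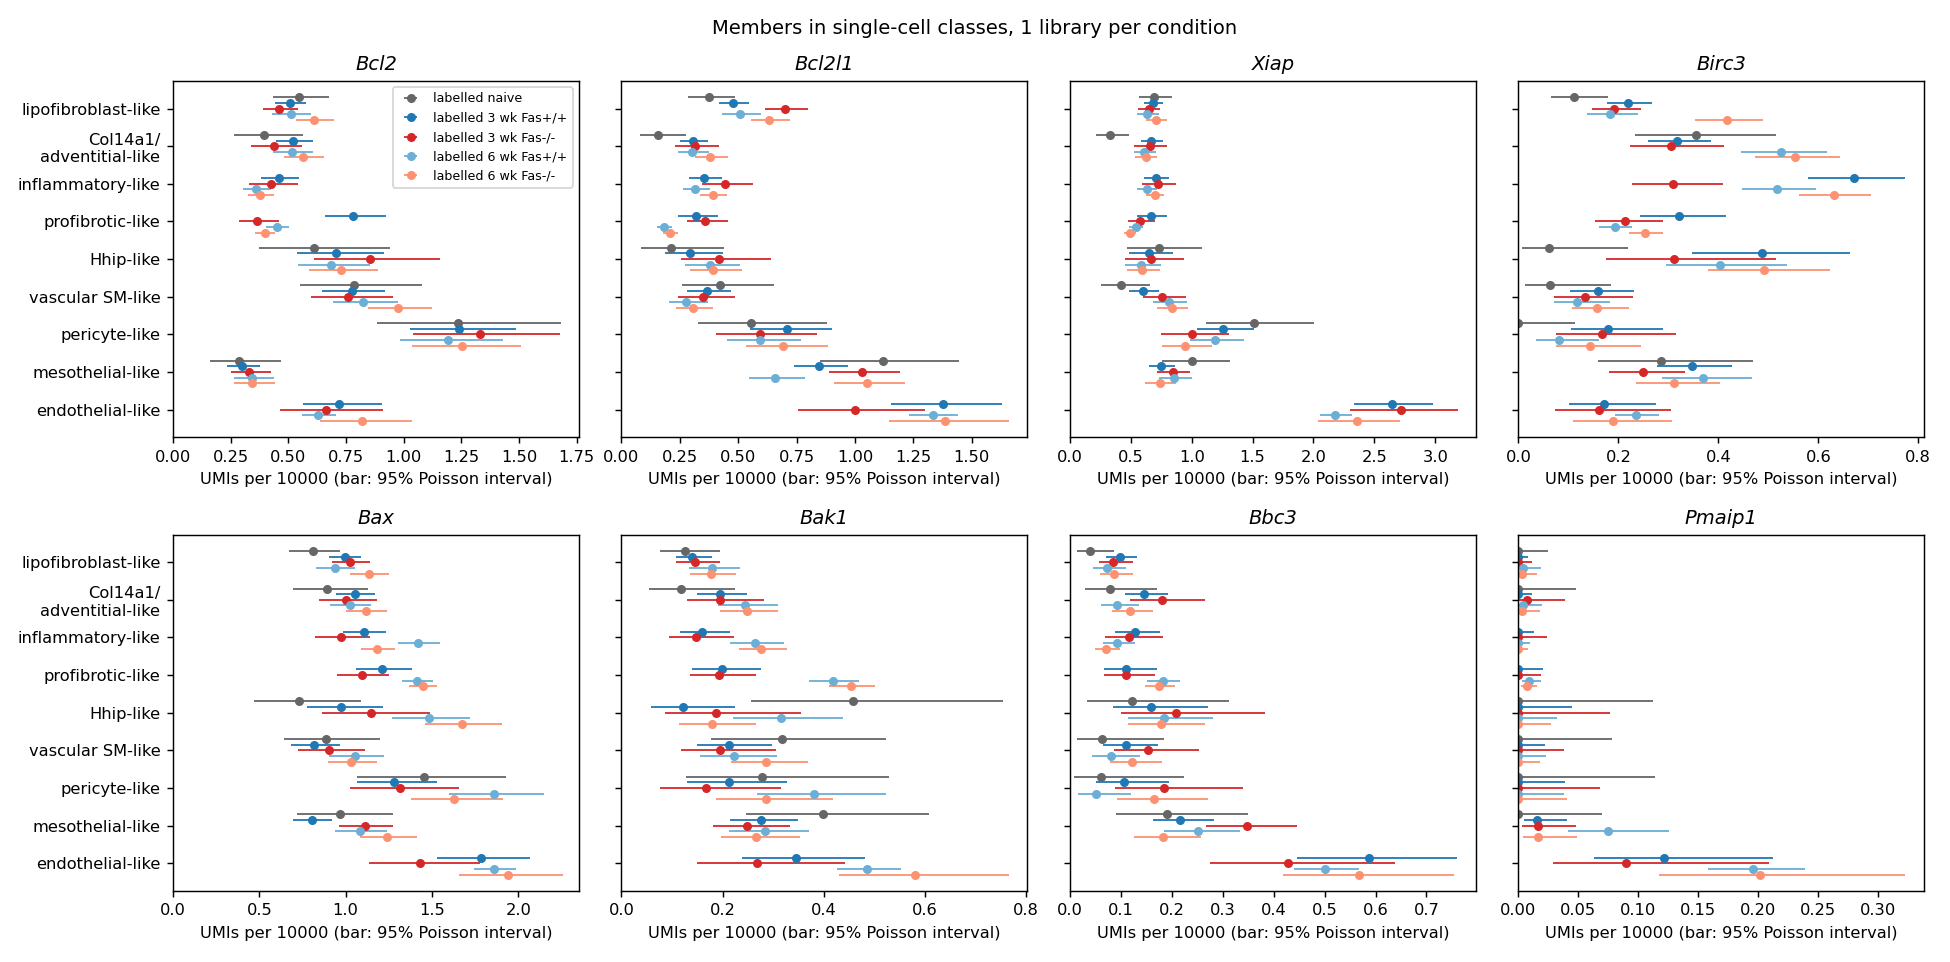
Summed level of 8 members (x axis, UMIs per 10000, bars give exact 95% Poisson intervals) by cell class (y axis), with 1 point per single-cell library. Classes with under 20 cells in a library are not drawn. Among the classes drawn Pmaip1 is highest in endothelial-like cells (0.0894 to 0.201), Bcl2 is highest in pericyte-like cells, and Bcl2l1 is lower in profibrotic-like (0.182 to 0.360) than in lipofibroblast-like cells.

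Profibrotic-like cells, the Cthrc1 and Spp1 class that deposits matrix, were set against lipofibroblast-like cells within each of the 4 bleomycin libraries, since the naive library held only 9 profibrotic-like cells. Bax, Bak1, Bbc3 and Bcl2l11, all pro-apoptotic, were higher in profibrotic-like cells in all 4 libraries. These are 4 of 10 members. Of 13224 genes with at least 20 UMIs in the 2 classes together, 26.3% were higher in all 4 libraries. Pmaip1, with 12 UMIs in profibrotic-like and 2 in lipofibroblast-like cells, is not among the 13224. Bcl2l1 and Xiap were lower in all 4 libraries, as were 26.9% of these 13224 genes. These shares are a description with no test. Birc3 was higher in 3, Mcl1 and Pmaip1 in 2 and Bcl2 in 1 of 4 libraries. With a mean over cells in place of summed UMIs, Bbc3 was higher in 3 and Xiap was higher, not lower, in 3 of 4 libraries. By summed levels averaged over libraries, Bax (1.292 against 1.506) and Bcl2l11 (0.242 against 0.2747) were lower in profibrotic-like than in pericyte-like cells. Bak1 (0.3161 against 0.2644) and Bbc3 (0.1444 against 0.1138) were higher. Lipofibroblast-like cells had the lowest Bak1 of all classes. Bcl2l1 was lowest in profibrotic-like cells (0.2681), then in Col14a1-like adventitial cells (0.2918). Whether these differences are particular to profibrotic-like cells was not tested.

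Bcl2l1 was 0.478, 0.701, 0.509 and 0.632 per 10000 in lipofibroblast-like and 0.321, 0.360, 0.182 and 0.209 in profibrotic-like cells, in the order of libraries given above. The ratio of profibrotic-like to lipofibroblast-like cells was 0.672 (interval 0.494 to 0.901), 0.513 (0.386 to 0.674), 0.358 (0.280 to 0.457) and 0.331 (0.270 to 0.404). Every interval lay below 1.

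Bak1 ran the other way. Its ratios were 1.43 (interval 0.922 to 2.19), 1.32 (0.835 to 2.07), 2.33 (1.73 to 3.20) and 2.58 (1.97 to 3.42). In the libraries labelled week 3 the intervals include 1, and in those labelled week 6 they do not. Bbc3 ratios were 1.14 (0.635 to 1.97), 1.28 (0.693 to 2.34), 2.52 (1.58 to 4.21) and 2.02 (1.36 to 3.08), with the same split. Bax ratios were 1.22 (1.03 to 1.44), 1.07 (0.893 to 1.27), 1.51 (1.32 to 1.73) and 1.27 (1.14 to 1.43). Bcl2 ratios went both ways, at 1.54 (1.24 to 1.91), 0.793 (0.588 to 1.06), 0.883 (0.724 to 1.08) and 0.648 (0.545 to 0.772). Profibrotic-like cells were also deeper, with median UMIs per cell of 12765, 7978, 27264 and 25087 against 9315, 5454, 8903 and 8454 in lipofibroblast-like cells. The part of depth in these ratios was not tested beyond the scaling to total UMIs.

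Fas-/- and Fas+/+ libraries with the same week label were compared within classes. The intervals cover counting error and not the spread between mice. Over all members and classes, 8 of 94 ratios at week 3 labels and 20 of 116 at week 6 labels had intervals that excluded 1. The same share was not computed over all genes, so these counts cannot be read as a trait of the members. The ratios given here are examples. In lipofibroblast-like cells Bcl2l1 was higher in the Fas-/- library at both labels, by ratios of 1.47 (interval 1.21 to 1.77) and 1.24 (1.01 to 1.54). Birc3 there was 0.192 and 0.219 at week 3 labels (Fas-/-, Fas+/+; ratio 0.876, interval 0.628 to 1.21) and 0.417 and 0.182 at week 6 labels (ratio 2.29, 1.66 to 3.19).

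In profibrotic-like cells Bcl2 was lower in the Fas-/- library labelled week 3, at 0.365 against 0.781 (ratio 0.467, interval 0.346 to 0.627). It was 0.397 against 0.450 at week 6 labels (ratio 0.883, 0.755 to 1.03). Bax, Bak1, Bbc3, Bcl2l1, Bcl2l11 and Xiap in profibrotic-like cells had intervals that included 1 at both labels. For Bax these were 0.903 (0.743 to 1.10) and 1.02 (0.942 to 1.12). Birc3 in inflammatory fibroblast-like cells had a ratio of 0.461 (0.328 to 0.635) at week 3 labels and 1.22 (1.01 to 1.47) at week 6 labels.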

How the data were processed

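The members and gene lists were chosen with earlier results of these data known. Lin- mouse lung cells were profiled by bulk RNA-seq (20 libraries) and droplet single-cell RNA-seq (5 libraries), and groups come from the deposited labels alone. For bulk, skewer trimming, HISAT2 alignment to GRCm38 and HTSeq counting per Ensembl gene were done by the authors, who deposited raw counts. A table of normalized values was not used. For single cells, they deposited Cell Ranger UMI counts. Versions of HISAT2 and HTSeq are not given in the sources used here.

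Bulk counts were tested in R 4.3.3 with edgeR 4.0.16 (filterByExpr with a minimum count of 10, TMM, quasi-likelihood F test, all 5 groups in 1 fit, Benjamini-Hochberg adjustment over 15773 genes, prior count of 2 in log2 CPM). Alternatives were RLE scaling, DESeq2 1.42.0, no filter, only the compared groups, a replicate block, an endothelial covariate and each library left out. The fit was checked on simulated data. Barcodes were kept at 200 to 7500 detected genes and a mitochondrial share of 20% or lower, normalized with sctransform 0.4.2 and clustered in Seurat 5.3.0 at a resolution of 0.8 (20 components, 3000 features), and a class needed 20 cells in a library. Ratios of members were tested by two-sided exact permutation.

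The text names the 10 members. Of each list it gives the count of calls and, by name, at most 6 called genes with the smallest p. For each member called in a comparison it gives the 3 genes most correlated over the 20 libraries. Examples outside this rule were chosen after their values were seen. Some genes of these lists are not reported here by name.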

Additional observations from a re-analysis of the deposited data

Results flagged for a closer look

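In 12 of 50 sets of 4 libraries (10 members in 5 groups), 1 library lay far from the other 3, by Dixon's test. Chance alone marks about 1 in 20 such sets. Replicate 1 of Fas+/+ mice at 3 weeks was high for Bcl2l1 (118 CPM, others 68.7 to 74.6), Pmaip1 (8.98, others 3.90 to 4.15) and Xiap (106, others 71.1 to 72.2). Replicate 4 of Fas-/- mice at 3 weeks was high for Mcl1 (361, others 259 to 261), Bcl2l11 (37.2, others 20.9 to 22.6), Pmaip1 (6.42, others 1.02 to 1.40) and Xiap (105, others 60.5 to 63.2). Both had the highest summed endothelial markers of their groups, 7514 and 6889 CPM, and the lowest summed profibrotic markers, 14020 and 24800 CPM. The part of this cell makeup in these values was not tested.

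Other single libraries stood apart without being highest in endothelial or lowest in profibrotic markers of their groups. Bcl2 was low in replicate 3 of Fas+/+ mice at 3 weeks (30.7, others 36.7 to 37.2). That library was highest of its group in profibrotic markers (68420 CPM) and had the lowest total count of all libraries, 11819700. Replicate 1 of Fas-/- mice at 6 weeks was low for Mcl1 (187, others 260 to 271) and high for Bcl2l11 (46.4, others 28.7 to 29.5). It was lowest of its group in endothelial markers (74.4 CPM, others 242 to 2224) and highest in profibrotic markers (33180, others 22840 to 29230). Birc3 was high in replicate 4 of the same group (67.6, others 40.1 to 41.0). Pmaip1 was high in naive replicate 4 (0.433, others 0.280 to 0.302), on 10 reads. That library was highest of the naive group in profibrotic markers (24760 CPM). The part of cell makeup or depth in these values was not tested.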

How the results depend on the processing

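Of the bulk comparisons, those of Fas+/+ with naive mice at 3 weeks (6 members called), of genotypes at 6 weeks (0) and of the interaction (0) stayed within 1.5 times under every alternative run. With the endothelial covariate, 4 instead of 6 members were called in Fas+/+ mice at 3 weeks, which is at the limit of 1.5 times. That fit called 3 instead of 7 in Fas-/- mice at 3 weeks, and 2 instead of 4 between weeks in Fas+/+ mice. In the same order, all genes called were 3896 instead of 6517, 4102 instead of 5045 and 3460 instead of 3615. In Fas+/+ mice at 6 weeks, 1 member was called, but 5 with DESeq2 and 6 with only the compared groups. The count was 3 without the library highest in endothelial markers of each bleomycin group, an alternative chosen after seeing the data. All genes called were 837 in the main fit and 1423, 1595 and 1525 in these. The last alternative also gave 2 instead of 0 members between genotypes at 3 weeks, with 1289 instead of 27 of all genes. Between weeks in Fas-/- mice 2 were called, but 1 without the filter and 1 with only the compared groups (1422, 891 and 1158 of all genes). Leaving out 1 library gave 0 to 2 in Fas-/- mice at 6 weeks (3 called), 1 to 2 in Fas+/+ mice at 6 weeks, 0 to 1 between genotypes at 3 weeks and 0 to 1 between weeks in Fas-/- mice. In the same order, all genes called were 549 to 843, 415 to 996, 0 to 582 and 568 to 1456, against 1022, 837, 27 and 1422 in the main fit. The cause of these moves was not tested.

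Replicate numbers did not pair the libraries. Deviations of same-numbered libraries correlated at a median of 0.034 (-0.464 to 0.403), and 14 of 40 pairs were over 0.1. With a replicate block, 6 and 7 members were called at 3 weeks and 2 and 3 at 6 weeks (Fas+/+, Fas-/-). In Fas-/- mice at 6 weeks Birc3 was called with the block and Bcl2l1 was not. The block gave 0 and 0 members between genotypes, and 4 and 3 between weeks. In the same order, all genes called with it were 6292 and 4758, 754 and 915, 45 and 0, and 3399 and 1336. In single cells, 4 members were higher in profibrotic-like cells in every library, also without the shallower copies of shared barcodes. No alternative reversed the direction of a called member. Pmaip1 rested on 6 to 10 reads per naive library, which limits its fold changes.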
